A study of Mus musculus with 15 samples.

Results

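The experiment described here compared pancreata of cerulein-treated mice carrying a wild-type HPK1 transgene (labelled HC, genotype HPK1/B) with the wildtype control pancreata sequenced beside them. Its members were the columns of the table that holds both groups, which gave 3 libraries labelled HC and 2 control libraries, 5 of the 15 libraries of the series. RNA-Seq measured reads per gene, and each library was made from RNA pooled from 3 mice according to the labels, so that no library is a single animal. The remaining 10 libraries came from mice with the kinase-dead M46 transgene, their controls, and mice of other genotypes.

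All mice of both groups were labelled C57BL/6 and 4 months old. The paper instead gives a single, younger age range in weeks and equal group sizes for its HC, M46 and control mice, and this difference could not be settled. In HC mice a transgene with a GFP stop cassette was switched to HPK1 by a tamoxifen-inducible Cre recombinase under the full-length elastase I promoter (Bac-cre), which is active in acinar cells, so other cells of the pancreas were not targeted. The controls were labelled WT, and the series' design text calls them cerulein-treated wild type (B), where B stands for the Bac-cre allele in the other genotypes. Whether the 2 control pools carried Bac-cre, and whether all controls received cerulein rather than PBS, is described differently by the labels and the study's methods and could not be settled.

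HPK1, encoded by Map4k1, is a serine/threonine kinase of blood cells and of some epithelia that feeds the JNK cascade and dampens signalling downstream of antigen receptors. Cerulein mimics the gut hormone cholecystokinin and, in excess, drives acinar cells, which secrete the digestive enzymes, into acute pancreatitis. Injured acinar cells can lose their enzymes and take on features of duct cells, a change called acinar-to-ductal metaplasia (ADM), and duct-like or lesion cells can switch on genes of the stomach lining.

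CPM values below are read counts divided by library size after TMM scaling in edgeR, in the order HC 1, HC 2 and HC 3, then control 1 and control 2. A gene was called when its adjusted p was at most 0.05 and its absolute log2 fold change at least 1. Adjusted p-values were taken from the quasi-likelihood test of edgeR, with the Benjamini-Hochberg correction applied over the 18407 genes tested. Libraries held 31791225 to 37829604 counts, so 3 counts, the most that a count of 0 allows, corresponded to 0.0768 to 0.0953 CPM, for counting error only. Library HC 3 had Y-linked transcripts (Ddx3y 48.4 CPM) and nearly no Xist, whereas the other 4 libraries had 0 counts of Ddx3y. Library HC 2 had 0.509% of its counts on 3 genes with rRNA-like sequence (CT010467.1, Gm23935 and Lars2) against 3.96 to 5.09% in the others. On the first principal component, which held 63.9% of the variance, HC 2 and HC 3 lay at 24.6 and 19.1, HC 1 at -2.17 and the controls at -20.5 and -21, so that HC 1 stood apart from the other libraries of its group. The part of sex, rRNA and library in the results was not tested.

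Map4k1 (ENSMUSG00000037337, chromosome 7 of GRCm38, 28982050 to 29003279) was examined as the targeted gene. It was at 7.33, 5.05 and 7.93 CPM in the libraries labelled HC and at 15.4 and 11.5 CPM in the controls. Every library labelled HC was therefore below both controls, although the label names an HPK1 transgene. The paper reports HPK1 expression in acinar cells of HC mice and high HPK1 kinase activity in their pancreata. Those are other measures than the RNA of whole tissue counted here. The log2 difference was -0.99 (standard error 0.25, adjusted p = 0.145), and with the replicate number as a block it was -1.13 (adjusted p = 0.0457). Map4k2, a related kinase, was at 27.0 to 28.5 CPM and at 27.9 and 30.8 CPM. Among 28 tested genes of the HPK1 and JNK cascade 0 were called, and their median log2 fold change was -0.12. Whether reads of the transgene were assigned to Map4k1 is not given in the sources used here, and the groups are named below as they were labelled.

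The 250 bases before the RefSeq start are shown for 4 called members of the epithelial lists, those with the smallest p. Where several starts were listed, the one furthest upstream was used, which applied to Cldn18 with 2 listed starts. The epithelial lists were chosen for this after their values were seen, and with 10 calls they held fewer than the metabolic lists with 12 or the immunoglobulin lists with 11, genes on 2 lists counted under both. They come from GRCm38.p6 and are written 5′ to 3′ on the gene's strand, with matches to the searched motifs in capitals. Cdhr3 lies at chr12:33092876-33093125 (minus strand), Glp1r at chr17:30901617-30901866 (plus strand), Sult1c2 at chr17:53845959-53846208 (minus strand) and Cldn18 at chr9:99717268-99717517 (minus strand).
Cdhr3: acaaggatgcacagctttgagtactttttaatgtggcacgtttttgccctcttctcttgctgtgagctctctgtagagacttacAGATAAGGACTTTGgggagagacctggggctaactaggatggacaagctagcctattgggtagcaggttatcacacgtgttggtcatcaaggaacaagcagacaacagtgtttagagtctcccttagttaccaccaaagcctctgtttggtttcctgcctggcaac
Glp1r: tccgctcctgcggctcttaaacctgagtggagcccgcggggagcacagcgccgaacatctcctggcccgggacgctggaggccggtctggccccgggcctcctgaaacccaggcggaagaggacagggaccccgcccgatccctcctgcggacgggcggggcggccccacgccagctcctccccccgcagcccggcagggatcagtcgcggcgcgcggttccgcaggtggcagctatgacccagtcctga
Sult1c2: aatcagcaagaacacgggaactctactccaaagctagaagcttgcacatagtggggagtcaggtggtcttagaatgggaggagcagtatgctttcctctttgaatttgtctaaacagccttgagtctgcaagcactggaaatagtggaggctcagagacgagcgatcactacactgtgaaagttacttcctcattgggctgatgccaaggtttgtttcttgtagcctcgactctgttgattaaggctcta
Cldn18: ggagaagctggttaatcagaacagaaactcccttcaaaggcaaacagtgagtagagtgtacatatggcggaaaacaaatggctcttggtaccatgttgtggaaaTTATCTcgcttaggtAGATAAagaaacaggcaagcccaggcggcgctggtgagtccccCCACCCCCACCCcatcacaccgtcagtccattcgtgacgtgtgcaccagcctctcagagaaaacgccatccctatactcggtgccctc

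The letters searched on both strands were TATAAA of the core promoter, AGATAA for zinc finger factors of endoderm, CAAAGTCC for part of an HNF4 site, TGTTTAC for forkhead factors and CCACCC for KLF factors. The Cdhr3 promoter held AGATAA 166 bases before the start, directly followed by CAAAGTCC in reverse at 160 bases. The Cldn18 promoter held AGATAA once on each strand and a pair of adjacent CCACCC, and those of Glp1r and Sult1c2 held none of these letters. Of the 86 called genes higher in HC, 64 had a promoter in the RefSeq table. CAAAGTCC was in 4 of them (6.25%), against 1.35% of 12740 promoters of tested genes and 1.21% of all 27025. TATAAA was in 11 (17.2%), against 7.42% of the promoters of tested genes and 13.0% of all. AGATAA was in 6 (9.38%), against 6.43% of the promoters of tested genes and 10.2% of all. TGTTTAC was in 3 (4.69%), against 2.25% and 3.06%, and CCACCC in 17 (26.6%), against 33.6% and 27.6%. These are descriptions of letters with no test.

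Across all genes, there were 86 genes called higher (0.467% of those tested) and 18 called lower (0.0978%), and in each of these 104 genes the groups did not overlap. Of the higher genes 83 were protein coding, whereas 8 of the 18 lower genes were immunoglobulin segments. For scale, every library labelled HC lay above both controls for 3219 genes (17.5%) and below both for 2955 (16.1%). The counts of list members above or below both controls given further on are to be read against these shares. All genes tested had a median log2 difference of -0.001. The number called rested on single libraries: it was 0 without HC 2, 0 without control 1, 0 without control 2, 3 without HC 3 and 379 without HC 1. All 104 genes kept their direction in each of these fits, in which fewer samples were compared. That outcome was largely fixed in advance and is no separate support. The genes were chosen in the full fit of the same libraries, and their groups did not overlap.

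**Figure D1:**
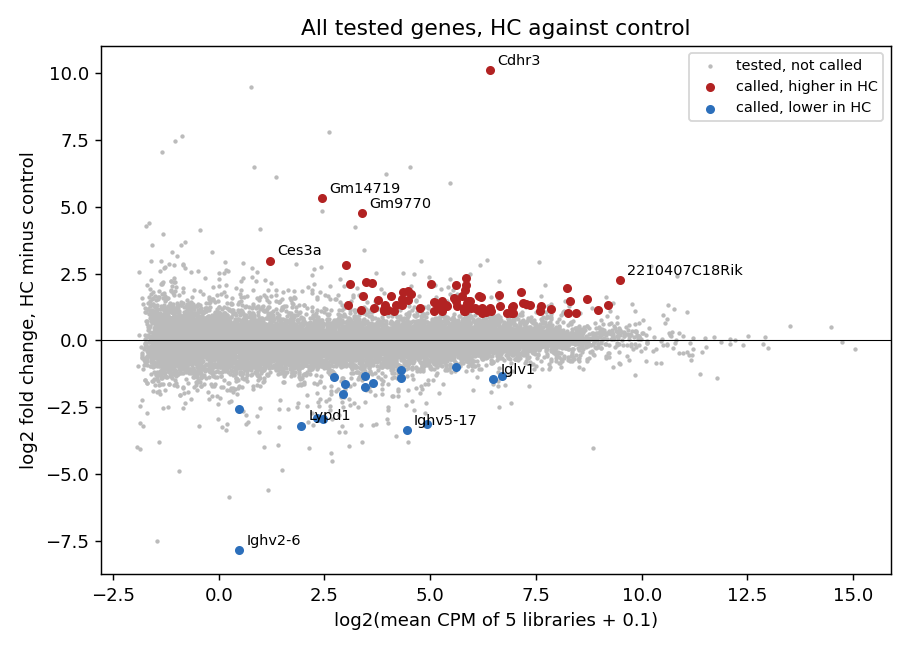
Each point is 1 of the 18407 tested genes, with the log2 of its mean CPM over the 5 libraries plus 0.1 on the x axis and its fitted log2 fold change, HC minus control, on the y axis. Called genes are in red (86 higher) and blue (18 lower), and Cdhr3 stands at 10.13, far above the other called genes. The value of Ighv2-6 depends on the prior count, since it had 1, 0 and 0 counts in the libraries labelled HC.

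Cdhr3, a cadherin-related surface protein known from ciliated airway cells as the receptor of rhinovirus C, differed most. It was at 61.3, 225 and 136 CPM in HC 1, HC 2 and HC 3 and at 0.143 and 0.102 CPM in the controls, where it had 5 and 4 counts. Every library labelled HC was far above both controls, by 10.13 on the log2 scale (standard error 0.89, adjusted p = 0.0336). Other ciliated cell genes did not share this pattern. Foxj1, which drives multiciliogenesis, was at 3.81 to 7.92 CPM and at 9.75 and 9.96 CPM, and Dnah5, an axonemal dynein, was at 0.128 to 0.285 CPM in all 5 libraries. Cdhr3 was the 1 called gene among 22 tested members of the ciliated cell list, whose median was 0.04 and took the other sign in 5 of 14 alternative settings.

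The neighbourhood of Cdhr3 on chromosome 12 was therefore described. Within 500 kb of the gene, 8 other genes were tested and 0 were called. Gm22904, a predicted miRNA gene inside Cdhr3 on the opposite strand, was at 0.325, 1.18 and 0.729 CPM and had 0 counts in both controls. The other neighbours showed no such pattern: Nampt was at 38 to 41.2 CPM and at 43.3 and 44.6 CPM, and Atxn7l1, which starts 54.8 kb away, was at 31.4 to 35.2 CPM and at 28.7 and 30.3 CPM. Cdhr3 is not listed in the M46 table.

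Among genes called higher, a pair of processed pseudogenes came next in size, which share sequence with a parent gene and whose read assignment is therefore uncertain. Gm14719 on the X chromosome was at 7.68, 9.92 and 8.82 CPM and at 0.201 and 0.23 CPM (log2 fold change 5.32, standard error 0.29, adjusted p = 0.0144). Gm9770 on chromosome 10 was at 11.1, 18.8 and 21.0 CPM and at 0.66 and 0.589 CPM, a log2 fold change of 4.76.

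Genes of stomach pit and gland cells were higher as a group, and by levels that are large for a pancreas. Gastrokines are small proteins secreted by the surface cells of the stomach. Gkn1 was at 2888, 2336 and 2888 CPM in the libraries labelled HC and at 680 and 322 CPM in the controls, and Gkn2 was at 1779, 1464 and 2221 CPM and at 392 and 141 CPM. All libraries labelled HC exceeded both controls, but the controls also differed from each other, and the log2 fold changes of 2.43 for Gkn1 (adjusted p = 0.0522) and 2.77 for Gkn2 (adjusted p = 0.0642) were not called. Of 15 tested members 13 lay above both controls (86.7%) and 0 below, and the median log2 fold change was 1.31. Without HC 2 or without HC 3 the number above was again 13 (86.7%), against 21 and 21.2% of all genes. Leaving out a library labelled HC can only keep or raise this number, so it could not have fallen.

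The called member of this list was Sult1c2, a sulfotransferase of gastric epithelium, at 104, 155 and 153 CPM and at 44.7 and 40.1 CPM (log2 fold change 1.69, standard error 0.2, adjusted p = 0.0423). Vsig1, a junction protein of the stomach, passed the adjusted p (0.0428) with a log2 fold change of 0.89. Members that did not pass included Muc5ac, the mucin of pit cells, at 902, 481 and 953 CPM against 389 and 113 CPM, and Ctse, the protease cathepsin E, at 1929 to 2499 CPM against 966 and 988 CPM. Markers of gastric gland cells differed little or overlapped. Atp4a, the parietal cell proton pump, was at 3.49 to 3.94 CPM and at 3.3 and 3.35 CPM, so just above both controls. Pgc, the chief cell pepsinogen, overlapped at 7.5 to 87.8 CPM and at 16.8 and 19.1 CPM. Muc6, the gland mucin, overlapped too, at 63.3 to 278 CPM and at 182 and 215 CPM.

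As a share of all counts, the stomach list took 0.953 ± 0.0652% (SD, n = 3) under HC, compared with 0.342 ± 0.0679% (SD, n = 2) in the control pools. The exact permutation test gave p = 0.2 (two-sided), the smallest that 3 libraries against 2 can give. The controls too held these transcripts. In CPM of total counts the list summed to 8823 to 10091 in the libraries labelled HC and to 2942 and 3904 in their controls. The M46 table lists 10 of the 19 genes, which summed to 15.7 to 179 in its 6 libraries. The tables were made separately and these levels were not tested against each other. In bulk tissue, fewer cells of a type and less RNA per cell cannot be told apart. Whether these transcripts came from cells of the pancreas or of the stomach was not tested.

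**Figure D2:**
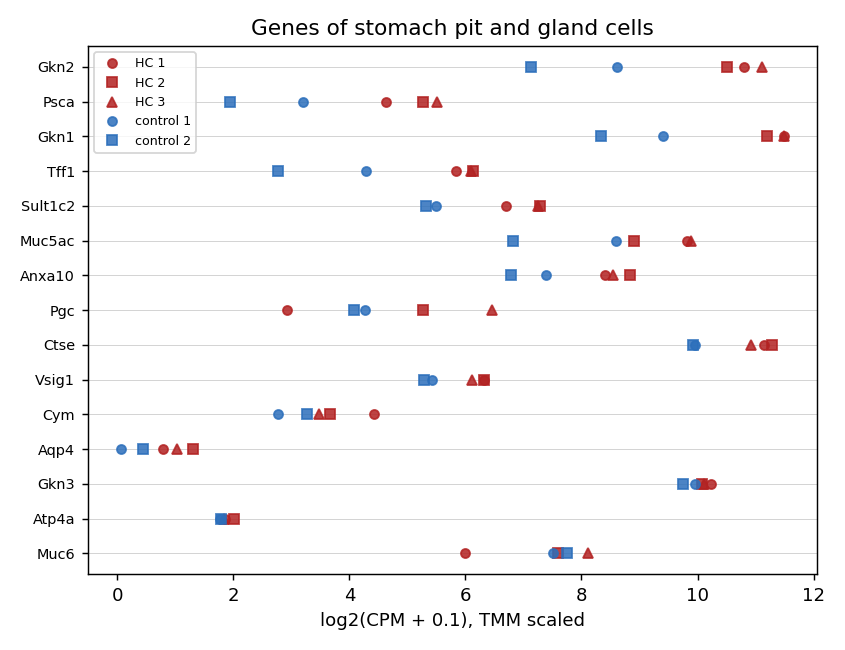
Levels of the 15 tested genes of stomach pit and gland cells in each library, as log2 of CPM plus 0.1, ordered by log2 fold change. Red points are the 3 libraries labelled HC and blue points the 2 controls, and 13 genes have all red points to the right of both blue points.

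The general epithelial genes were moderately higher. Of 48 genes of simple epithelium 38 lay above both controls (79.2%) and 2 below, with a median log2 fold change of 0.48, and 2 were called. Both encode transcription factors of differentiated surface epithelium. Klf4 was at 244, 334 and 309 CPM and at 133 and 131 CPM (log2 fold change 1.16, standard error 0.16, adjusted p = 0.0449), and Elf3 was at 220, 283 and 237 CPM and at 127 and 105 CPM (log2 fold change 1.09, adjusted p = 0.0476). The defining marker Cdh1, epithelial cadherin, was at 910 to 1010 CPM against 634 CPM in each control, while Epcam, another pan-epithelial marker, overlapped at 513 to 561 CPM and 470 and 514 CPM. As a share of counts the list took 1.11 ± 0.0681% (SD, n = 3) and 0.806 ± 0.0396% (SD, n = 2), with an exact permutation p of 0.2.

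Among other epithelial genes, Krt20, the keratin of terminally differentiated gut epithelium, was at 533, 712 and 462 CPM and at 178 and 205 CPM (log2 fold change 1.57, standard error 0.22, adjusted p = 0.0449). It was the 1 called member of 18 keratins, of which 7 lay above both controls (38.9%, against 17.5% of all genes) and 0 below. Cldn18, a tight junction claudin of stomach and lung, was at 96.9, 76.9 and 93.0 CPM and at 44.1 and 37.4 CPM (log2 fold change 1.13, adjusted p = 0.0428), and was the 1 called of 17 claudins. Lgals4, galectin-4 of the gut lining, was at 690, 909 and 716 CPM and at 303 and 308 CPM, a log2 fold change of 1.34. Tspan8, a tetraspanin of ductal and gastrointestinal cells, was at 420, 481 and 414 CPM and at 226 and 198 CPM and was the 1 called of 20 ductal genes. Of these ductal genes 10 lay above both controls (50%) and 3 below (15%), with a median log2 fold change of 0.33. The defining ductal markers Krt19 and Sox9 had log2 fold changes of 0.96 and 0.34 without a call (adjusted p = 0.113 and 0.312). Myo1a, the brush border myosin, and Anxa13, an annexin of epithelial membranes, rose by log2 fold changes of 1.22 each. Among 20 tested gut epithelium genes 8 lay above (40%) and 3 below (15%), against 17.5 and 16.1% of all genes. The intestinal stem cell marker Lgr5 was at 0.945 to 2.6 CPM and at 2.78 and 2.89 CPM, and Muc2, the intestinal goblet cell mucin, stayed under 0.7 CPM in every library.

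The mucins had a high median log2 fold change of 1.15 with 7 of 11 genes above both controls, but 0 were called. Muc1, a membrane mucin of ducts, was at 1110, 1362 and 1049 CPM and at 559 and 527 CPM (adjusted p = 0.0576), and Muc13 was at 19.5, 19.5 and 12.9 CPM and at 6.63 and 5.86 CPM (adjusted p = 0.0562).

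Several called genes with a role at mucosal surfaces were described after their values were seen, so they stand for no tested group. Duox2 makes hydrogen peroxide at mucosal surfaces and was at 481, 474 and 343 CPM and at 133 and 87.1 CPM (log2 fold change 1.97, standard error 0.25, adjusted p = 0.0434). Its maturation factor Duoxa2, whose gene lies 0.451 kb away on chromosome 2, was at 92.2, 95.2 and 59.0 CPM and at 20.9 and 18 CPM (log2 fold change 2.08, adjusted p = 0.0394). Naip1, a sensor of bacterial secretion needles with near-identical family members, was at 98.0, 119 and 87.9 CPM and at 31.2 and 33.7 CPM (log2 fold change 1.64, adjusted p = 0.0341). The epithelial cytokine Il18 was at 25.1 to 43.7 CPM and at 11.8 and 12.7 CPM without a call (adjusted p = 0.0596).

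Some called genes encode ligands or receptors. They were picked from the calls, and such genes were not counted as a group. Shh, the hedgehog ligand, was at 64.9, 71.0 and 74.3 CPM and at 21.1 and 12.2 CPM (log2 fold change 2.07, standard error 0.24, adjusted p = 0.0404). Glp1r, the receptor of the incretin GLP-1, was at 225, 227 and 194 CPM and at 87.5 and 85.9 CPM (log2 fold change 1.31, standard error 0.12, adjusted p = 0.0336), and was the 1 called gene of 24 on the islet list. The insulin gene Ins1 was not called, at 539 to 618 CPM and at 402 and 537 CPM, although 11 of the 24 genes lay above both controls and 0 below. Ret, the receptor of GDNF family ligands, and Fzd5, a Wnt receptor, rose by log2 fold changes of 1.44 and 1.14.

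**Figure D3:**
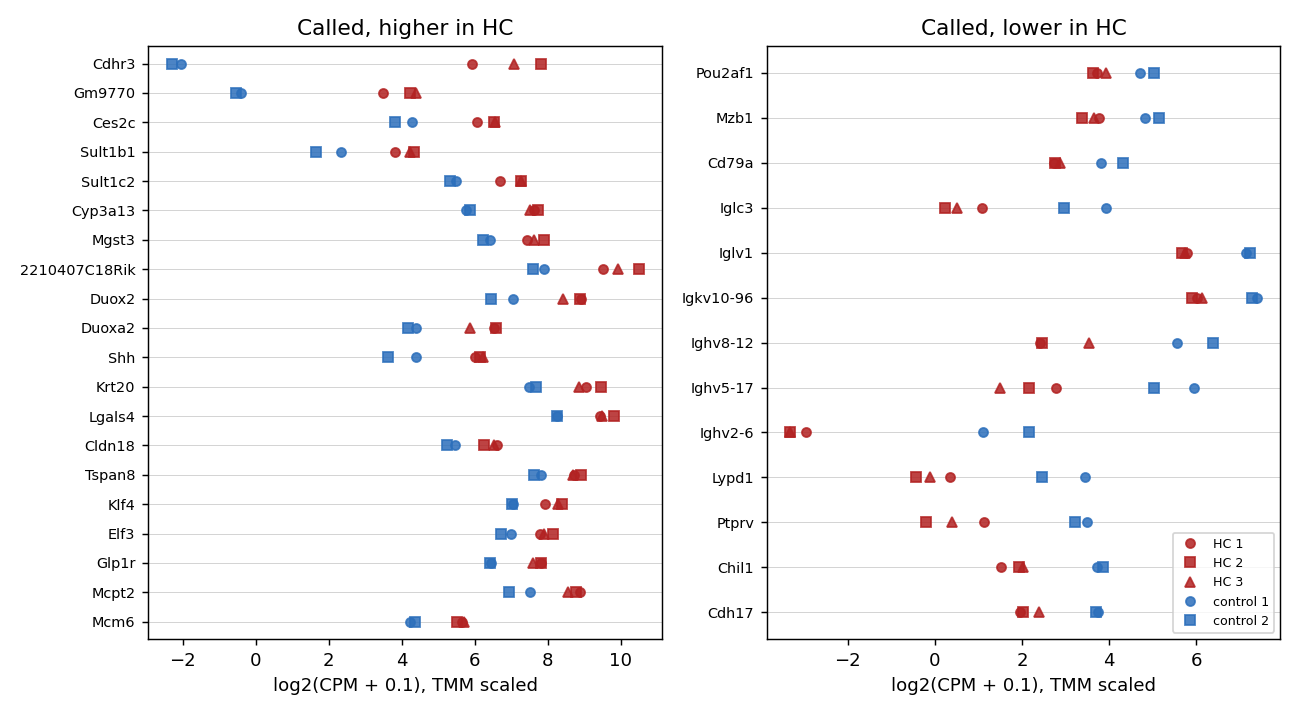
Levels of 33 called genes in each library, as log2 of CPM plus 0.1, with 20 higher genes on the left and 13 lower genes on the right. Red symbols are the 3 libraries labelled HC and blue symbols the 2 controls, and the colours do not overlap for any gene shown.

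Acinar genes, by contrast, did not separate the groups. The defining enzymes Cpa1 (3530 to 6147 CPM against 3892 and 5427 CPM) and Prss2 (4027 to 6483 CPM against 4700 and 6947 CPM) were present in every library and overlapped. Of 28 enzyme genes 0 were called, 1 lay above and 1 below both controls, and the median of -0.09 changed sign in 2 of 14 alternative settings. The list took 8.51 ± 1.69% of counts (SD, n = 3) and 8.71 ± 1.4% (SD, n = 2). The acinar gene Ctrc, a chymotrypsin, split the group labelled HC, at 0.975 CPM in HC 1 and 109 and 108 CPM in HC 2 and HC 3, against 1.58 and 0.87 CPM in the controls. Bhlha15 and Ptf1a, transcription factors of acinar cells, also overlapped between the groups. Cckar, the receptor that cerulein binds, was at 36.6 to 50.3 CPM and at 65.7 and 70.9 CPM (adjusted p = 0.109).

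Among metabolic genes, calls included enzymes of drug and antioxidant metabolism. Cyp3a13, a drug-metabolising cytochrome P450, was at 196, 212 and 183 CPM and at 54.5 and 58.9 CPM (log2 fold change 1.8, standard error 0.12, adjusted p = 0.0149). Of 47 genes for xenobiotic and antioxidant metabolism 28 lay above both controls (59.6%) and 3 below, with a median of 0.57, and 3 were called (Sult1c2, Cyp2s1 and Mgst2). Cyp2s1, an extrahepatic P450, was at 66.8, 73.3 and 75.2 CPM and at 26.8 and 37.5 CPM, and Mgst2, a microsomal glutathione transferase, was at 39.3, 65.1 and 52.6 CPM and at 18.9 and 18.8 CPM. Hmox1, heme oxygenase, went the other way at 24.2 to 28.5 CPM and at 44.6 and 48.1 CPM, and its log2 fold change of -0.82 (adjusted p = 0.0449) was short of the fold threshold. The sulfotransferase Sult1b1 was at 14, 20.0 and 18.8 CPM and at 4.91 and 3.02 CPM (log2 fold change 2.15, adjusted p = 0.0449). The carboxylesterase Ces2c, which belongs to a cluster of similar genes, was at 66.3, 93.2 and 94.8 CPM and at 19.2 and 13.9 CPM (log2 fold change 2.36, adjusted p = 0.0341).

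Lists of lipid and energy metabolism had small positive medians and few or 0 calls. Of 24 genes of cholesterol synthesis 20 lay above both controls (83.3%) and 0 below, with a median of 0.53 and 0 calls. Sqle, squalene epoxidase, passed the adjusted p (0.0454) at 76.7, 82.9 and 70.9 CPM and 44.9 and 46.9 CPM, with a log2 fold change of 0.74. Nuclear genes of the respiratory chain showed 39 of 49 above (79.6%) and 0 below, with a median of only 0.3 and 0 calls. Cox5a, a subunit of cytochrome c oxidase, had the smallest p among them, at 40.9, 55.1 and 42.3 CPM and at 32.8 and 28.9 CPM (adjusted p = 0.174). The mitochondrially encoded genes had 1 of 12 above both controls (8.33%, against 17.5% of all genes) and a median of 0.12. For fatty acid oxidation 23 of 40 genes lay above and 1 below (median 0.22), with 0 calls. Ribosomal protein genes had a median of 0.26 with 9 of 76 above (11.8%), a share under the 17.5% of all genes.

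In glycolysis and gluconeogenesis 14 of 33 genes lay above and 1 below, and the called member was Fbp2, a fructose bisphosphatase, at 39, 35.9 and 30.7 CPM and at 13.4 and 16.6 CPM (log2 fold change 1.23, adjusted p = 0.0449). The TCA cycle (10 of 30 or 33.3% above, 2 below) and lipid synthesis (10 of 24 or 41.7% above, 2 below) had 0 calls. Amino acid and one-carbon metabolism had 0 calls as well, and its counts of 3 above and 7 below among 45 genes were under those of all genes. Of 288 solute carriers 4 were called, which were the sodium/proton exchangers Slc9a2 and Slc9a4, neighbours 49.8 kb apart on chromosome 1, the sulfate transporter Slc26a2 and the choline-like transporter Slc44a4. Slc26a2 was the most abundant, at 716, 598 and 609 CPM and at 320 and 268 CPM, and Papss2, which makes the activated sulfate that sulfotransferases use, was at 161, 212 and 211 CPM and at 81.2 and 66.8 CPM (log2 fold changes 1.13 and 1.4).

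**Figure D4:**
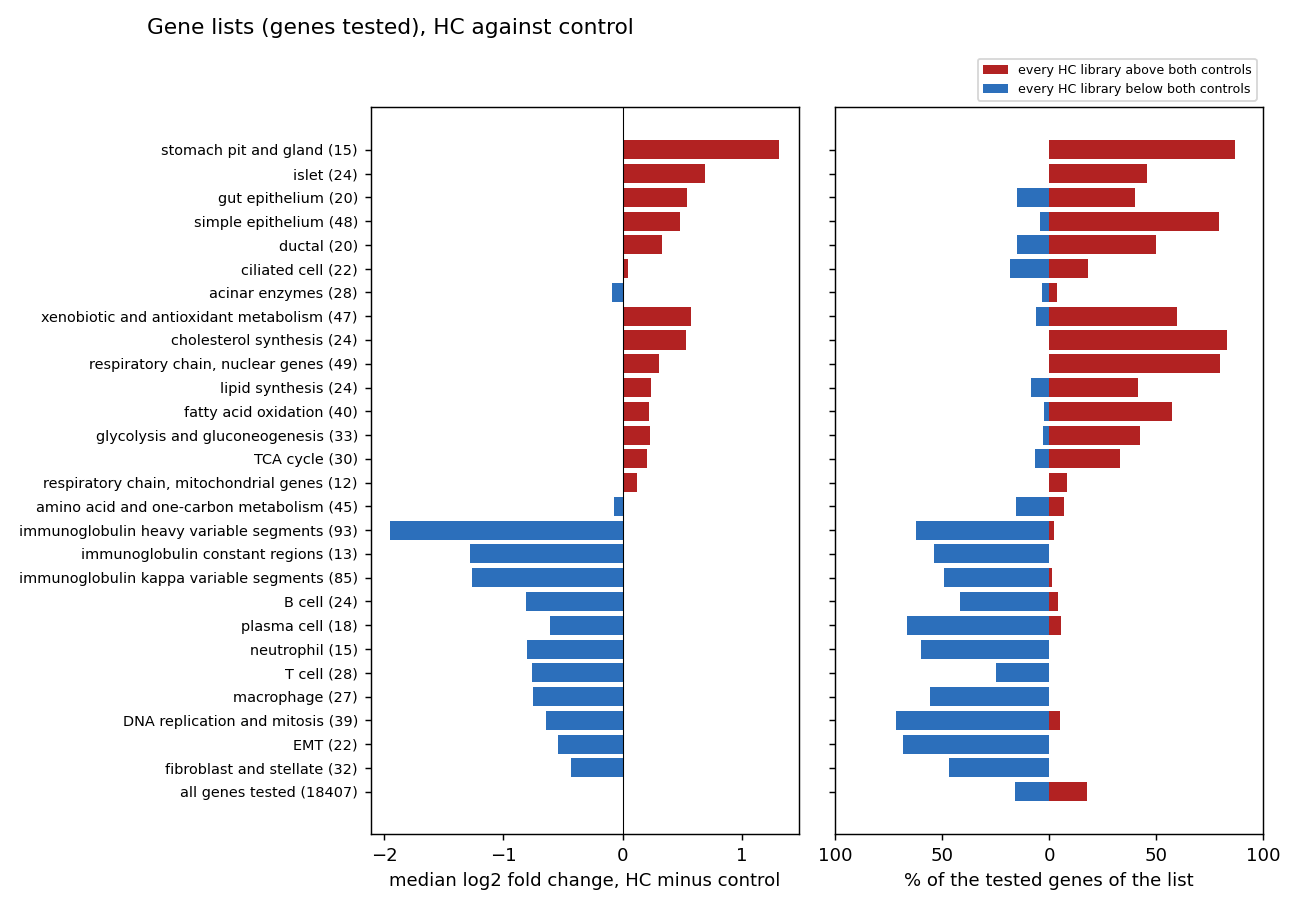
Gene lists with the number of genes tested, showing on the left the median log2 fold change, HC minus control, and on the right the percent of genes with every library labelled HC above (red) or below (blue) both controls. Among the lists drawn, the stomach list has the highest median (1.31) and heavy variable segments the lowest (-1.95), against -0.001 for all genes tested.

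Antibody genes were lower in the libraries labelled HC. Plasma cells in mucosal tissue mostly secrete IgA, built from Igha heavy chains, kappa or lambda light chains and the joining chain Jchain. Igha was at 2646, 1397 and 2404 CPM in the libraries labelled HC and at 5794 and 5493 CPM in the controls, and Igkc, the kappa constant region, was at 1902, 1268 and 1948 CPM and at 3734 and 4515 CPM. Each group kept to its own range, but neither gene was called (adjusted p = 0.115 for Igha and 0.091 for Igkc). Of 13 tested genes for constant regions and Jchain 7 lay below both controls (53.8%) and 0 above, and the median log2 fold change was -1.28. Iglc3, a lambda constant region, fell from 15.1 and 7.71 CPM to 2.01, 1.08 and 1.33 CPM (log2 fold change -2.95, standard error 0.39, adjusted p = 0.0449). It resembles Iglc2 in sequence, so the split of reads between them is uncertain.

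Ighg2b and Ighm, heavy chains other than IgA, varied widely between libraries of a group. Ighg2b was at 61.0, 31.0 and 101 CPM and at 126 and 1970 CPM, so that control 2 stood far above the other 4 libraries (adjusted p = 0.157). Every library labelled HC was below both controls for Ighg2b, but control 1 was close to HC 3. Ighm, the heavy chain of IgM, was at 41.2, 206 and 107 CPM and at 85.7 and 101 CPM and overlapped. Constant regions with Jchain took 0.475 ± 0.113% of counts (SD, n = 3) against 1.31 ± 0.262% (SD, n = 2), and the exact permutation p was 0.2.

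Variable segments, of which each B cell clone uses a few, were lower in breadth as well. Heavy variable segments summed to 566, 149 and 207 CPM and to 1350 and 1380 CPM, and kappa variable segments to 1075, 693 and 1029 CPM and to 2258 and 2530 CPM. Below both controls lay 58 of 93 tested heavy segments (62.4%), 42 of 85 kappa segments (49.4%) and 2 of 3 lambda segments, while 2, 1 and 0 lay above. Called as lower were 4 heavy, 2 kappa and 1 lambda segment. Iglv1, the main lambda segment, was at 54.9, 51 and 53 CPM and at 141 and 150 CPM (log2 fold change -1.45, standard error 0.09, adjusted p = 0.0149). Igkv10-96 was at 64.2, 59.5 and 69.5 CPM and at 168 and 154 CPM, and Ighv5-17 at 6.76, 4.35 and 2.73 CPM and at 61.8 and 32.5 CPM (log2 fold changes -1.32 and -3.35). Ighv2-6 had 1, 0 and 0 counts in HC 1, HC 2 and HC 3 and 71 and 172 counts in the controls. Segments of one family are near-identical in places, which makes single values uncertain.

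Heavy variable segments were spread over many genes in every library. The most abundant heavy segment took 6.66, 8.39 and 8.38% of heavy segment counts in HC 1, HC 2 and HC 3 and 5.44 and 6% in the controls. It was Ighv1-76 in HC 1, Ighv3-2 in HC 2 and HC 3, Ighv3-6 in control 1 and Ighv8-12 in control 2. The number of heavy segments with more than 3 counts was 87, 73 and 81 in the libraries labelled HC and 93 and 100 in the controls, whose segment counts were also higher (47052 and 53894 against 4683 to 19152).

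**Figure D5:**
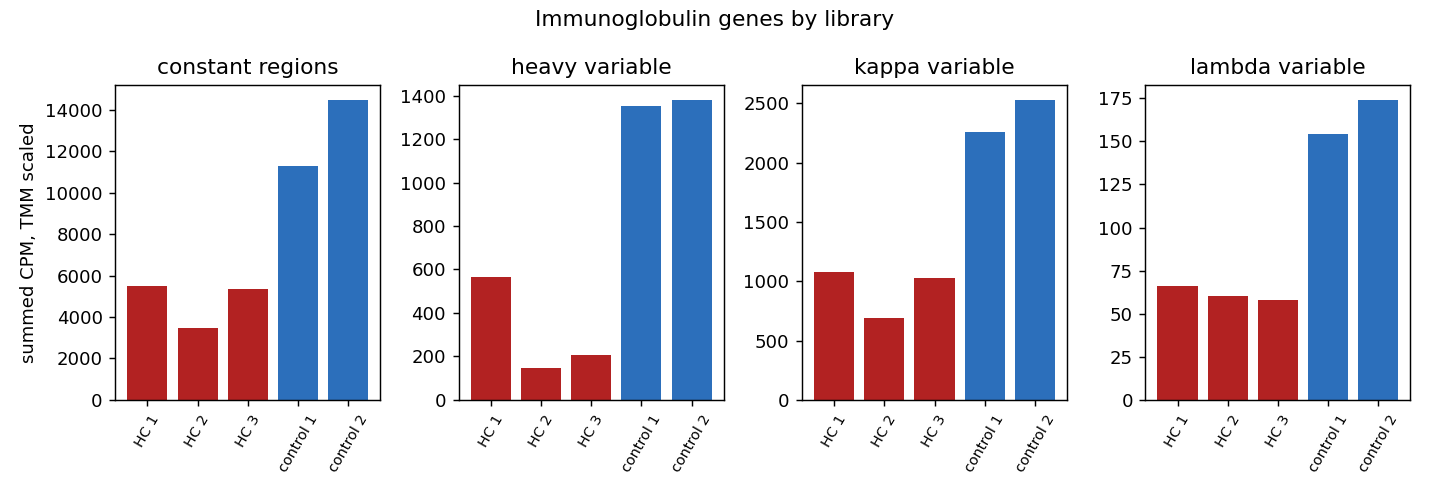
Summed CPM of immunoglobulin constant regions with Jchain and of heavy, kappa and lambda variable segments in each library, with bars from 0. In each panel the 3 red bars (HC) are lower than both blue bars (controls), and HC 1 has the highest heavy variable sum of its group.

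Plasma and B cell genes moved with the antibody transcripts. Mzb1, a chaperone of antibody secretion, was at 13.4, 10.2 and 12.5 CPM and at 28.2 and 35.2 CPM (log2 fold change -1.39, standard error 0.17, adjusted p = 0.0428). Pou2af1, the B cell coactivator OBF1, was at 13.0, 12.3 and 15.0 CPM and at 25.8 and 32.5 CPM (log2 fold change -1.12, adjusted p = 0.0454), and Cd79a, a signalling chain of the B cell receptor, at 6.56, 6.64 and 7.26 CPM and at 14 and 19.9 CPM (log2 fold change -1.31, adjusted p = 0.0499). Of 18 plasma cell genes 12 lay below (66.7%), 1 above and 2 were called, and of 24 B cell genes 10 lay below (41.7%), 1 above and 1 was called. The plasma cell marker above both controls was Sdc1, which epithelial cells also express, at 584 to 821 CPM and at 493 and 561 CPM. The B cell marker Ms4a1 was low and overlapped, at 0.532 to 1.05 CPM and at 0.775 and 4.12 CPM.

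Other leukocyte lists were lower at the median without calls. Macrophage genes had 15 of 27 below both controls and 0 above (median -0.75), and Csf1r, the receptor of the macrophage growth factor, was at 204, 148 and 242 CPM and at 402 and 315 CPM (adjusted p = 0.156). Neutrophil genes had 9 of 15 below (60%, median -0.8), T cell genes 7 of 28 (25%, median -0.76) and dendritic cell genes 6 of 18 (33.3%, median -0.68). Each of these lists had 0 above, and among all genes 16.1% lay below and 17.5% above. The defining T cell markers Cd3e and Cd3g overlapped between the groups, with Cd3e at 5.32, 1.56 and 2.12 CPM and at 7.46 and 3.43 CPM. Flt3, a defining dendritic cell marker, overlapped too. The macrophage list took 0.427 ± 0.0864% of counts (SD, n = 3) against 0.736 ± 0.207% (SD, n = 2), with an exact permutation p of 0.2.

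Mast cell proteases went the other way. Mcpt2, a protease of mucosal mast cells, was at 475, 436 and 375 CPM and at 182 and 123 CPM (log2 fold change 1.49, standard error 0.21, adjusted p = 0.0454). Mcpt1 and Mcpt4 lay above both controls too, without a call. Markers of all mast cells did not follow, with Cpa3 at 2.13 to 11.3 CPM and at 3.56 and 4.74 CPM and Kit at 13.4 to 33.2 CPM and at 21.7 and 27.7 CPM. The list's median of 0.51 took the other sign in 1 of 14 alternative settings.

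Stromal and dividing cell genes were lower at the median. Fibroblast and stellate cell genes had 15 of 32 below and 0 above (median -0.43), and genes of epithelial-mesenchymal transition (EMT) had 15 of 22 below and 0 above (median -0.54), each with 0 calls. Col1a1, the fibrillar collagen, overlapped at 1037 to 2705 CPM and 2179 and 2910 CPM. Of 39 genes of DNA replication and mitosis 28 lay below (71.8%) and 2 above (median -0.64), among them Mki67, the proliferation antigen, at 16.1, 18.8 and 26.3 CPM and at 40.0 and 38.5 CPM (adjusted p = 0.114). The 1 called member of that list had the opposite direction. It was Mcm6, a subunit of the replicative helicase, at 50.5, 45.4 and 51.9 CPM and at 18.8 and 20.5 CPM (log2 fold change 1.32, standard error 0.11, adjusted p = 0.0336). Its helicase partners Mcm3, Mcm4 and Mcm5 lay below both controls in every library labelled HC, without a call.

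Other genes called as lower were not of the B cell lineage. Chil1, a chitinase-like secreted protein of inflamed tissue, was at 2.78, 3.69 and 3.93 CPM and at 13.0 and 14.4 CPM (log2 fold change -1.98, standard error 0.21, adjusted p = 0.0366). Cdh17, an intestinal cadherin, was at 3.75, 3.94 and 5.11 CPM and at 13.3 and 12.8 CPM (log2 fold change -1.61, adjusted p = 0.0428), opposite in direction to the gut and stomach genes above. Lypd1, Ptprv and Rec8 were under 3 CPM in each library labelled HC, with log2 fold changes of -3.19, -2.9 and -2.56.

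Red cell transcripts split the libraries labelled HC. Hba-a1, an alpha globin, was at 16.8 CPM in HC 1, 191 in HC 2 and 169 in HC 3, and at 12.8 and 18 CPM in the controls, so HC 1 lay within the range of the controls. Hba-a2, the other alpha globin gene, was at 6.03, 63.1 and 56.4 CPM and at 5.42 and 5.25 CPM, so HC 1 was just above both controls. The 8 tested erythroid genes had 0 calls and a median log2 fold change of 2.53, with 1 above both controls and 1 below.

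The effect in HC was compared with that of M46 (MC) in a model of 4 groups, each with its own controls, over 14884 genes listed in both tables. The effects differed for 325 genes (2.18%), of which 61 were higher in HC and 264 lower. For Map4k1 the effect was -0.98 in HC and 1.13 in MC, and the difference of -2.11 was called (standard error 0.35, adjusted p = 0.0262). Of the 104 genes called in HC 79 could be tested and 23 differed, among them Duox2, Cyp3a13, Glp1r and Mcm6, while Krt20 (difference 1.26, adjusted p = 0.401) did not pass. Those genes were chosen for their effect in HC, which is part of each difference. The 23 of 79 are therefore not to be read against the 2.18%. Mzb1 and Pou2af1 had effects of 4.16 and 3.74 in MC against -1.38 and -1.11 in HC. Age (2 months in MC and 4 months in HC by the labels) and experiment cannot be told apart from the transgene in this comparison. The paper gives the same age range for both.

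Several called genes were also far more abundant in both groups of this experiment than in the M46 table, by CPM of total counts and with no test. Duox2 was at 90 CPM or more in all 5 libraries and at 1.76 to 4.79 CPM in the 6 libraries of the M46 table. Lgals4 was at 300 CPM or more here and at most 3.46 CPM there. The 28 acinar enzymes, of which the M46 table lists 27, summed to 71701 to 104357 CPM here and to 389388 to 587390 CPM there.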

How the data were processed

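RNA-Seq of whole pancreas was deposited by the authors as counts, the number of reads assigned to each gene without normalization. According to the submitters' processing notes, bcl2fastq 2.17.14, STAR 2.6.1a, HTSeq 0.6.1 and DESeq2 were used with build mm10. The strand setting of the counting is not given in the sources used here, so antisense and overlapping genes may share reads. The labels name Trizol and a KAPA stranded kit, whereas the study's methods name other kits. The table of the HC experiment lists 49585 genes, of which 49326 matched a symbol in the gene name table, and positions came from GENCODE on GRCm38. A table of the authors' own comparison for M46, with fold changes and p-values, was not used.

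Groups followed the labels. After filterByExpr and TMM scaling, the 5 libraries were fitted in edgeR 4.0.16 under R 4.3.3 by glmQLFit, and glmQLFTest gave the p-values. The scripts were tested on simulated data. Standard errors were derived from the F statistic as the size of the log2 difference over its root. Lists were described by counts and medians with no set test, and shares of counts by an exact permutation test. Since libraries are pools of mice, p-values measure the spread between pools. The members and gene lists were chosen with earlier results of these data known. Named genes were Map4k1, the 6 largest changes in each direction among called, non-overlapping genes with a mean of at least 2 CPM, in each list up to 4 called members (or the 2 with the smallest p) and its first 2 genes. Others (such as Duox2, Duoxa2, Naip1, Lgals4, Papss2, Igkc, Ighg2b, Ctrc, Cckar, Il18, Pgc, Muc6, Kit and the Mcm genes) were chosen after their values were seen. Promoters came from RefSeq (GRCm38.p6), without the 50 bases after the start. The rule set for them named the group of lists with the most called members, which was the metabolic group, so showing epithelial genes departed from it. Alternatives were DESeq2 1.42.0, other scalings and filters, the replicate number as a block, a fit with 4 further libraries of the series and leaving out each library. Counts of non-overlapping members without HC 2 or HC 3 were added after the data were seen. No deposited sample column was left unmapped. Some genes and libraries are not reported here.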

Additional observations from a re-analysis of the deposited data

Results flagged for a closer look

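Between 2 experiments with separate controls, 23 genes called in HC had an effect that differed from that of M46, which was tested as a difference of effects with edgeR's quasi-likelihood test and Benjamini-Hochberg adjustment over 14884 genes. Values are log2 differences, HC effect minus M46 effect. Among epithelial and secretory genes, the difference was 3.08 for Duox2, 2.54 for Lypd6b, 1.89 for Lrrc26, 1.73 for Anxa13, 1.27 for Slc44a4, 1.24 for Tspan1, 1.2 for the transcription factor Elf3 and 1.93 for the transcription factor Tfcp2l1. Among genes of detoxification and transport it was 2.39 for Cyp3a13, 1.89 for Sult1c2, 1.81 for Cyp2s1, 1.45 for Mgst3, 1.09 for the transporter Abcc3 and 1.26 for the lipid flippase Atp8a2. Among receptors it was 1.86 for Glp1r and 1.65 for Ret. The dynein adaptors Bicdl1 and Bicdl2 had 1.42 and 1.32, and Mcm6 had 1.36. Lower effects in HC were found for the plasma cell genes Mzb1 (-5.54) and Pou2af1 (-4.85), for the meiotic cohesin Rec8 (-2.06) and for Pm20d1 (-1.45). Age, sex of the pooled mice and table differed or may have differed between the experiments, and their part in these values was not tested. The genes were chosen for their effect in HC, which is itself part of each difference. Some levels in the M46 table were low, such as Lrrc26 at 0.191 to 0.586 CPM and Lypd6b at 0.475 to 0.734 CPM. Duox2 was at 4.79 CPM in M46 control 3 and at 1.76 to 2.34 CPM in the others.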

How the results depend on the processing

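The main count of 104 called genes was 468 with DESeq2, 395 without a filter on low counts, 339 with the replicate number as a block, 50 when libraries were scaled without acinar enzyme genes, and 1 in a fit that also held 4 further libraries of the series. Leaving out 1 library at a time gave 0 to 379 calls. With 0 calls, edgeR found 1993 genes (without HC 2), 1814 (without control 1) and 2601 (without control 2) at an unadjusted p under 0.05. The cause was not tested, except that fewer samples were compared. For Map4k1 the replicate block gave a log2 fold change of -1.13 with an adjusted p of 0.0457, DESeq2 gave an adjusted p of 0.00862 at -1, and the other adjusted p-values ranged from 0.0529 to 0.716. Same-numbered libraries deviated together with correlations of 0.222 and 0.21, but with only 2 pairs and no label that ties them the numbers were not taken as pairs. The number of genes whose effects differed between HC and M46 was 325, and 1005 with DESeq2 and 169 with the scaling without acinar enzyme genes. No setting turned the direction of a gene that was followed through the settings and whose direction is given. Some genes named after their values were seen, such as Igkc, Ighg2b, Muc5ac, Ctse and the Mcm genes other than Mcm6, were not followed. The medians of 15 of 68 lists changed sign or reached 0 in some setting, all with medians near 0 except hepatocyte, mast cell, tuft cell, lymph node stroma and interferon response. Depth limits genes under about 0.1 CPM, and 2 controls limit every test.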

Other observations

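Hepatocyte, tuft and mesothelial markers were examined as other cell types that a pancreas sample could hold. The liver markers Alb and Apoa2 were at 4.99 to 11 CPM and 0.0636 to 0.287 CPM. Tuft cell genes peaked in 1 library, with Dclk1 at 355, 155 and 134 CPM in HC 1, HC 2 and HC 3 and at 227 and 159 CPM in the controls, and Pou2f3, the tuft cell regulator, at 24.3, 8.99 and 6.69 CPM and at 14.8 and 9.37 CPM. The mesothelial marker Msln was lowest in HC 1 and control 1, at 96.2, 291 and 241 CPM and at 70.2 and 231 CPM. The natural killer cell gene Klrb1c was at 7.12 CPM in HC 1 and near 0.6 in HC 2 and HC 3, against 5.77 and 6.86 CPM in the controls, so HC 1 resembled the controls in this gene as in globin and Ctrc.

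Inflammatory and interferon genes had no calls but were mostly lower. Of 43 interferon response genes 40 were lower, with 14 below both controls (32.6%) and 1 above. Their median log2 fold change was -0.51, which reached 0 in some setting. Of 44 genes of inflammation and chemokines 36 were lower, with 11 below (25%) and 4 above (9.09%), and a median of -0.31. Among all genes 16.1% lay below and 17.5% above. Cxcl9, a chemokine induced by interferon gamma, was at 3.54, 1.46 and 1.08 CPM and at 16.1 and 8.58 CPM (adjusted p = 0.0952 by edgeR). Reg3g, an antibacterial lectin of injured pancreas and gut, was at 47.9, 61.3 and 43.6 CPM and at 253 and 79.3 CPM. The collagen Col10a1 was at 2.36, 0.413 and 2.03 CPM and at 21.1 and 13.2 CPM (adjusted p = 0.0683 by edgeR).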
